A study of Danio rerio with 5 samples.

Results

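The 8 genes of the Ret receptor system examined in zebrafish vagus motor neurons were the receptor gene ret, 5 co-receptor genes of the GFRA family and both GDNF ligand genes. They were found by symbol among 31953 Ensembl identifiers, and each of them had a row in the count files. The reference table writes several of these symbols in capitals without the a or b of zebrafish duplicates. RET (ENSDARG00000055305), gfra1a (ENSDARG00000099732) and gfra3 (ENSDARG00000087704) each have a symbol of their own. The second GFRA1 gene (ENSDARG00000102564), both GFRA2 genes and both GDNF genes are therefore named here by identifier.

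All cells came from Tg(isl1:Kaede) embryos at 28 to 30 hours after fertilisation, in which isl1 regulatory DNA drives the photoconvertible protein Kaede. Light turned Kaede from green to red in neurons at one end of the vagus motor population, anterior or posterior, and the red cells were picked by hand, 100 cells to a library. Both groups carried the same transgene, and position in the nucleus was the only labelled difference between them. There were 2 anterior libraries (B and G) and 3 posterior libraries (B, G and R). The labels do not say whether libraries came from separate embryos, so p-values measure the spread between these samples, which may be technical.

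Ret is a receptor tyrosine kinase that binds ligands of the GDNF family only together with a GFRA co-receptor, a protein held on the outer face of the membrane. In mammals GDNF is the preferred ligand of GFRA1, neurturin of GFRA2, artemin of GFRA3 and persephin of GFRA4. The system is known for the survival and axon guidance of motor neurons and for the migration of the enteric neural crest, which also expresses Ret. The comparison asked which of these genes differ between neurons at the anterior and posterior ends of the vagus motor nucleus.

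Reads assigned to genes numbered 14932562 to 20088585 per library, and 10463 to 13589 genes had at least 1 count. The floor used for an undetected gene was 3 counts, which corresponded to 0.148 to 0.195 CPM. CPM is the count scaled to a library total of 1e+06 reads after TMM normalisation. Floors and intervals cover counting error only, since no molecular identifiers are described. Markers of the labelled cell type were read first. ISL1, a transcription factor gene of cranial motor neurons, had 27822 to 42731 counts per library. The cells were picked by a transgene under isl1 regulatory DNA, so high ISL1 follows from the picking and does not check the label. CHAT, the gene of the acetylcholine-synthesising enzyme, had 92 and 729 counts in anterior B and G and 0, 175 and 196 in posterior B, G and R. SLC18A3, another motor neuron marker, had 530 and 2819 counts in anterior B and G and 173, 804 and 707 in posterior B, G and R.

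RET was detected in every library and was lower in the posterior group. Anterior RET levels were 482 (B) and 324 CPM (G), and posterior levels were 207 (B), 262 (G) and 93.8 CPM (R). Both anterior libraries lay above all 3 posterior libraries, and posterior R was the lowest. The anterior mean was 403 ± 112 CPM (SD, n = 2), and the posterior mean 188 ± 85.9 CPM (SD, n = 3). The log2 fold change, posterior minus anterior, was -1.11 ± 0.48 (SE), which is 2.16-fold higher in anterior cells. The edgeR quasi-likelihood test gave an unadjusted p of 0.0394 and an adjusted p of 0.726 over all 11827 genes tested, so the difference did not pass the adjusted threshold of 0.05. Without posterior R the log2 fold change was -0.75 and the unadjusted edgeR p was 0.166. The unadjusted p was also above 0.05 without posterior B (0.0778), in the legacy form of the edgeR fit (0.0633) and in DESeq2 (0.0593). With the library letter as a block over the 4 B and G libraries, the unadjusted edgeR p was 0.210. Without anterior B the log2 fold change was -0.80.

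**Figure D1:**
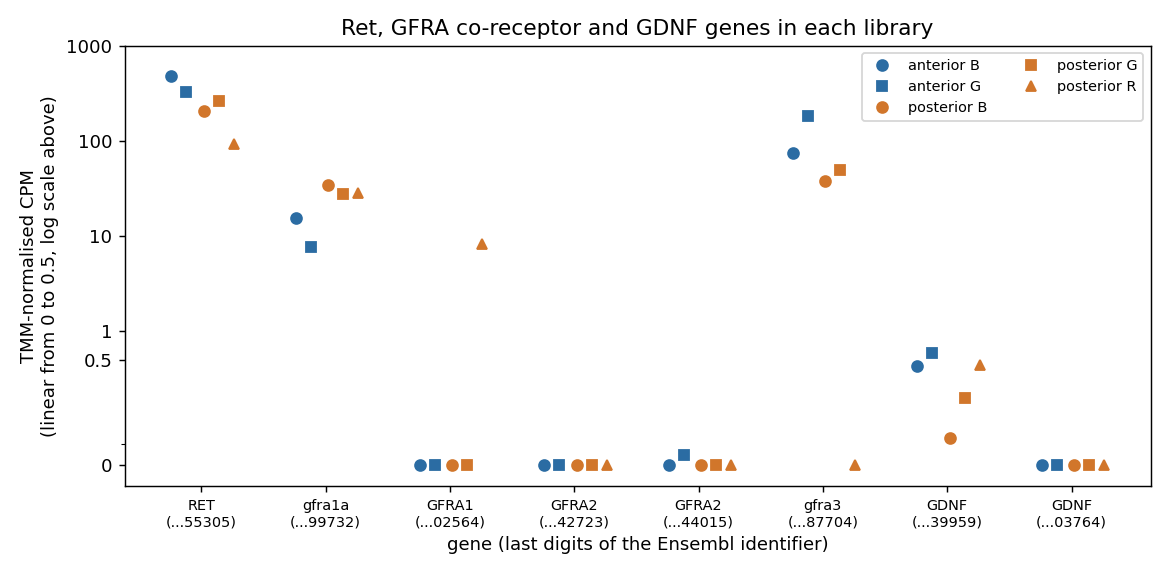
TMM-normalised CPM of the 8 member genes in each of 5 libraries (points; blue anterior, orange posterior; shape gives the library letter), on an axis that is linear from 0 to 0.5 and logarithmic above. RET and gfra3 sit higher in both anterior libraries than in any posterior library, gfra1a sits lower, and 4 of the other 5 genes lie at or under 1 CPM in every library while the second GFRA1 gene has counts in posterior R alone.

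RET was next set against ISL1 within each library. Per 100 ISL1 reads there were 20.2 (B) and 17.5 (G) RET reads in the anterior libraries, and 11.4 (B), 14.4 (G) and 4.16 (R) in the posterior ones. The groups did not overlap on this scale, and the ratio of their geometric means was 2.13. It uses the same RET counts, and ISL1 differed little between groups, so it nearly restates the RET difference. An exact permutation test over the 10 ways to divide the libraries, with the one-sided p doubled, gave p = 0.2. This is the smallest p that this form allows for 2 against 3 libraries. Any groups that do not overlap give it, so it adds nothing to that separation. ISL1 itself had overlapping groups, with a log2 fold change of -0.11.

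Gfra3, the gene of the artemin co-receptor in mammals, showed the larger difference in the anterior direction. Its anterior levels were 74.9 (B) and 181 CPM (G), and its posterior levels 38.2 (B), 49.1 (G) and 0 CPM (R). The groups did not overlap, although anterior G was far above anterior B and posterior R had 0 counts. The anterior mean was 128 ± 75.4 CPM (SD, n = 2), the posterior mean was 29.1 ± 25.8 CPM (SD, n = 3), and the log2 difference was -2.23 ± 0.87 (SE). The edgeR unadjusted p was 0.025 and the adjusted p 0.726. The estimate depended on single libraries. Without posterior R it was -1.54 with an unadjusted edgeR p of 0.0900, and without anterior G it was -1.45 with an unadjusted p of 0.243. The legacy form of the edgeR fit gave an unadjusted p of 0.325 and DESeq2 gave 0.276.

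The 0 in posterior R was set against genes of like abundance. Gfra3 averaged 85.9 CPM over the other 4 libraries. Of 1538 other genes within 1.5-fold of that mean and above 3 counts in each of those libraries, 7 had 0 counts in posterior R, or 0.455%. That mean includes the anterior libraries, whereas gfra3 was at 38.2 CPM in posterior B and 49.1 CPM in posterior G. The genes were thus matched at a higher level than gfra3 had there, and the share at the posterior level was not computed.

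The co-receptor gene gfra1a lay in the opposite direction. Its levels were 15.5 (B) and 7.72 CPM (G) at the anterior end, and 34.2 (B), 27.4 (G) and 28.1 CPM (R) at the posterior end. The 3 posterior libraries were close to each other and above both anterior libraries. Anterior libraries averaged 11.6 ± 5.47 CPM (SD, n = 2) and posterior libraries 29.9 ± 3.72 CPM (SD, n = 3), and the log2 fold change was 1.40 ± 1.07 (SE). The edgeR quasi-likelihood test gave an unadjusted p of 0.216 and an adjusted p of 0.776. The raw counts were 262 and 156 in anterior and 527, 433 and 533 in posterior libraries.

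Within single libraries, gfra1a reads numbered 3.21 and 2.38 per 100 RET reads in anterior B and G. In posterior B, G and R they numbered 16.5, 10.5 and 30.0. Since gfra1a was higher and RET lower in every posterior library, this ratio had to separate the groups and adds nothing to those results. For gfra3 the same ratio was 15.5 and 56.0 in anterior B and G and 18.5, 18.7 and 0 in posterior B, G and R, and the groups overlapped. These ratios are not corrected for transcript length, so they compare libraries and not the amounts of the proteins' transcripts. Neither ratio was tested.

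**Figure D2:**
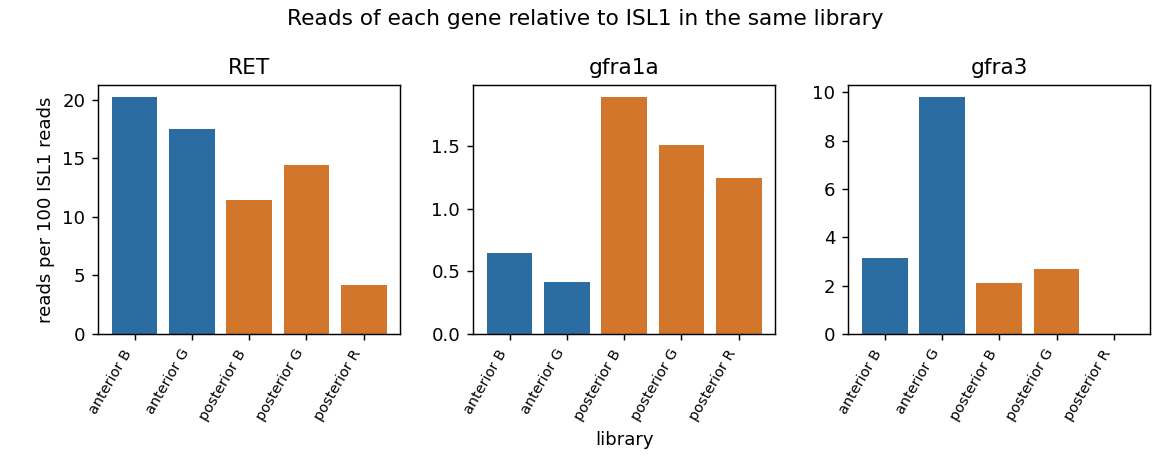
Reads of RET, gfra1a and gfra3 per 100 ISL1 reads in each library (bars; blue anterior, orange posterior; separate linear axes from 0). RET is highest in anterior B at 20.2 and lowest in posterior R at 4.16, gfra1a is higher in all 3 posterior libraries, and gfra3 is highest in anterior G at 9.82.

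Of the 8 members, these 3 passed the filter on low counts, each through libraries of both groups. Of the 3, RET and gfra3 had an unadjusted p under 0.05, both higher in anterior cells. Among all genes tested the share with such a p was 6.49%, made up of 4.21% higher in anterior and 2.28% higher in posterior cells. No gene passed the adjusted threshold in the edgeR fit (0 of 11827, or 0%, with 768 at an unadjusted p under 0.05), whereas DESeq2 called 252 genes and none of the members. All 3 tested members had groups that did not overlap, as did 21.9% of all genes tested. By direction, the groups of 12.3% of genes were separate with anterior higher and those of 9.57% with posterior higher. With 3 members, these shares are given as description only.

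**Figure D3:**
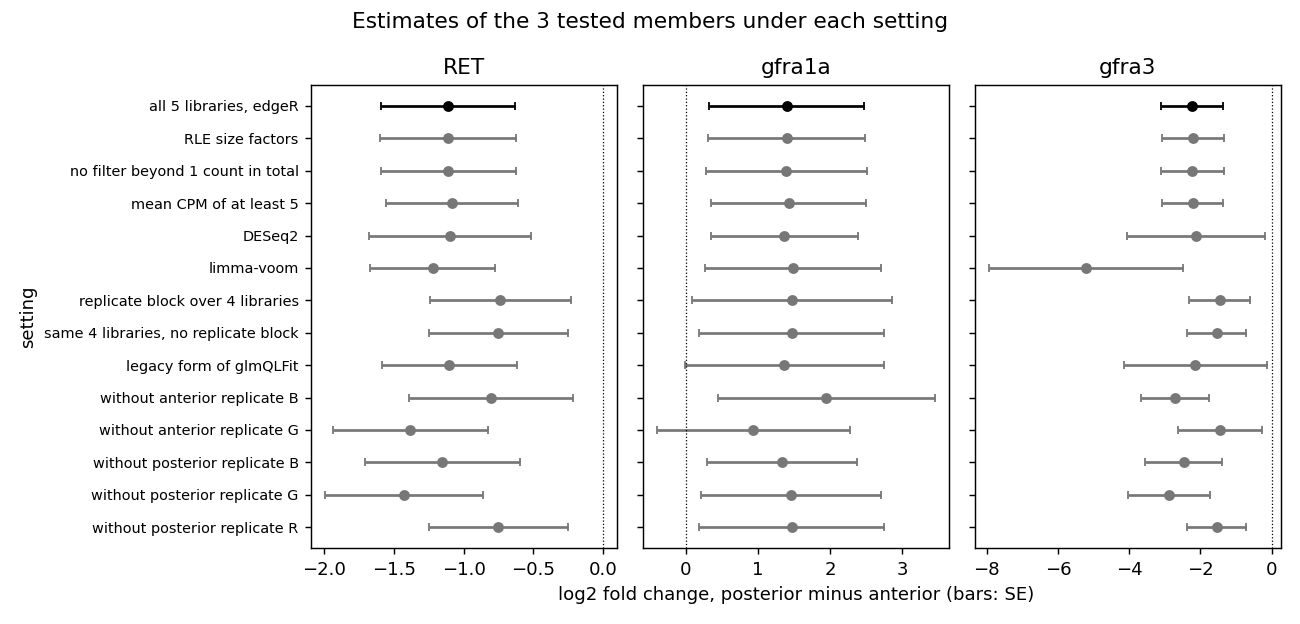
Log2 fold change of RET, gfra1a and gfra3, posterior minus anterior, with its SE (points and bars), under each normalisation, filter, test and left-out library; the black point is the edgeR fit to all 5 libraries. RET and gfra3 lie below 0 and gfra1a above 0 in every setting, and RET moves between -1.43 and -0.74.

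The other members were at or near 0. The second GFRA1 gene had 157 counts, or 8.29 CPM, in posterior R and 0 in the other 4 libraries. Of 1620 other genes within 1.5-fold of that level in posterior R, 140 had 0 counts in all other libraries, or 8.64%. GFRA2 (ENSDARG00000042723) had 0 counts in all 5 libraries, and GFRA2 (ENSDARG00000044015) had 1 count, in anterior G. Both neurturin co-receptor genes were thus under the floor throughout.

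Ligand RNA was scarce in the picked neurons. GDNF (ENSDARG00000039959) had 8 and 12 counts in anterior B and G and 2, 5 and 9 counts in posterior B, G and R, and the groups overlapped. Pooled, this was 0.538 CPM in anterior cells (exact Poisson 95% interval 0.329 to 0.831) and 0.319 CPM in posterior cells (0.182 to 0.518). The intervals overlap, but they cover counting error only and leave out the spread between libraries. They do not test a difference, and no conclusion on one was drawn. GDNF (ENSDARG00000103764) had 0 counts in every library. In mammals GDNF is made in large part by the target tissues of motor axons, and such tissues were not sampled here.

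Ligand and receptor genes beyond the members were examined as a list of 8 identifiers. The artemin genes artna and artnb, the neurturin gene nrtn, and the receptor genes gfra4a and gfral had 0 counts in all libraries. The persephin-type co-receptor gene gfra4b had 387 counts, or 20.4 CPM, in posterior R and 0 elsewhere. A pattern of this kind held for 86 of 2154 genes at a like level in posterior R (3.99%).

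The remaining genes of that list encode NCAM1, an adhesion molecule that in mammals can bind GDNF together with GFRA1. NCAM1 (ENSDARG00000056181) levels were 157 (B) and 118 CPM (G) in the anterior group and 355 (B), 263 (G) and 283 CPM (R) in the posterior group. All posterior libraries were higher, and the log2 fold change was 1.13 ± 0.45 (SE) with an edgeR unadjusted p of 0.0284 and an adjusted p of 0.726. Without anterior G the unadjusted p was 0.113. The other NCAM1 gene (ENSDARG00000007220) had overlapping groups, a log2 fold change of 0.29 ± 0.64 (SE) and an edgeR adjusted p of 0.956. Its sign changed when anterior B or posterior B was left out.

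Inside the cell, Ret signals through adaptors to the Ras-MAPK and PI3K-Akt pathways. Of 37 tested genes of this list, 2 with an unadjusted edgeR p under 0.05 were higher in anterior cells and 1 in posterior cells, against 4.21% and 2.28% of all genes tested. The list median log2 fold change was 0.053, against -0.055 over all genes tested. The kinase gene akt1 had anterior levels of 27.2 (B) and 28.1 CPM (G) and posterior levels of 0 (B), 0.507 (G) and 5.22 CPM (R). HRAS (ENSDARG00000098497), a Ras GTPase gene, had anterior levels of 81.1 (B) and 68.8 CPM (G) and posterior levels of 31.8 (B), 23.6 (G) and 7.86 CPM (R). Both were separate between groups. The other HRAS gene (ENSDARG00000005651) had a log2 fold change of -0.081 ± 0.67 (SE) and an unadjusted edgeR p of 0.906. MAPK3, which encodes the kinase ERK1, was at 10.1 (B) and 10.8 CPM (G) in anterior and at 135 (B), 10.6 (G) and 61.1 CPM (R) in posterior libraries, and its groups overlapped. Akt1, HRAS ENSDARG00000098497 and MAPK3 each had an adjusted edgeR p of 0.726. In the legacy form of the fit none of these 3 had an unadjusted p under 0.05.

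Genes that receptor tyrosine kinases induce, among them feedback inhibitors, numbered 11 tested. None had an unadjusted edgeR p under 0.05 or an adjusted p under the threshold. Of these, 9 had a positive log2 fold change, as did 5671 of all 11827 genes tested. The list median was 0.93, against -0.055 over all genes tested, and a direction of the list was not tested. The smallest p values belonged to SPRED3 and DUSP6, both inhibitors of MAPK signalling, and to etv5b, a transcription factor gene that Ret signalling induces in mouse kidney. Etv5b was at 179 (B) and 645 CPM (G) in anterior and at 688 (B), 820 (G) and 703 CPM (R) in posterior libraries. Its log2 fold change was 0.83 ± 0.46 (SE), with an edgeR adjusted p of 0.726. Anterior B stood apart from the other 4 libraries for this gene, and the log2 fold change was 0.19 without anterior B and 2.04 without anterior G (edgeR adjusted p 0.283). Without anterior G the list median was 2.11 and that of all genes tested 0.45.

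Transcription factors placed upstream of Ret in other systems were higher in posterior cells where they had an unadjusted p under 0.05, which 3 of 10 tested genes did, and none was higher in anterior cells at that p. Over all genes tested 2.28% were higher in posterior and 4.21% in anterior cells at that p. The list was chosen with earlier results of these data known, so these shares are description only, and no enrichment was tested. The HOXB5 gene ENSDARG00000013057, whose mouse counterpart acts on Ret in the enteric nervous system, was at 14.9 (B) and 44.7 CPM (G) in anterior and at 267 (B), 313 (G) and 340 CPM (R) in posterior libraries, with an adjusted p of 0.345 by edgeR. The other HOXB5 gene (ENSDARG00000054030) was also separate between groups (edgeR adjusted p 0.359). DESeq2 called both, with adjusted p-values of 1.31e-05 and 1.85e-05. PHOX2A reached 1466 CPM in posterior B against 84.9 to 310.2 CPM in the other 4 libraries, so its groups overlapped (edgeR adjusted p 0.726). Without posterior B its log2 fold change was 0.47, against 2.02 with all libraries, and the unadjusted edgeR p was 0.504. The log2 fold change of RET had the opposite sign to those of all 3, and a link between these genes and RET was not tested.

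**Figure D4:**
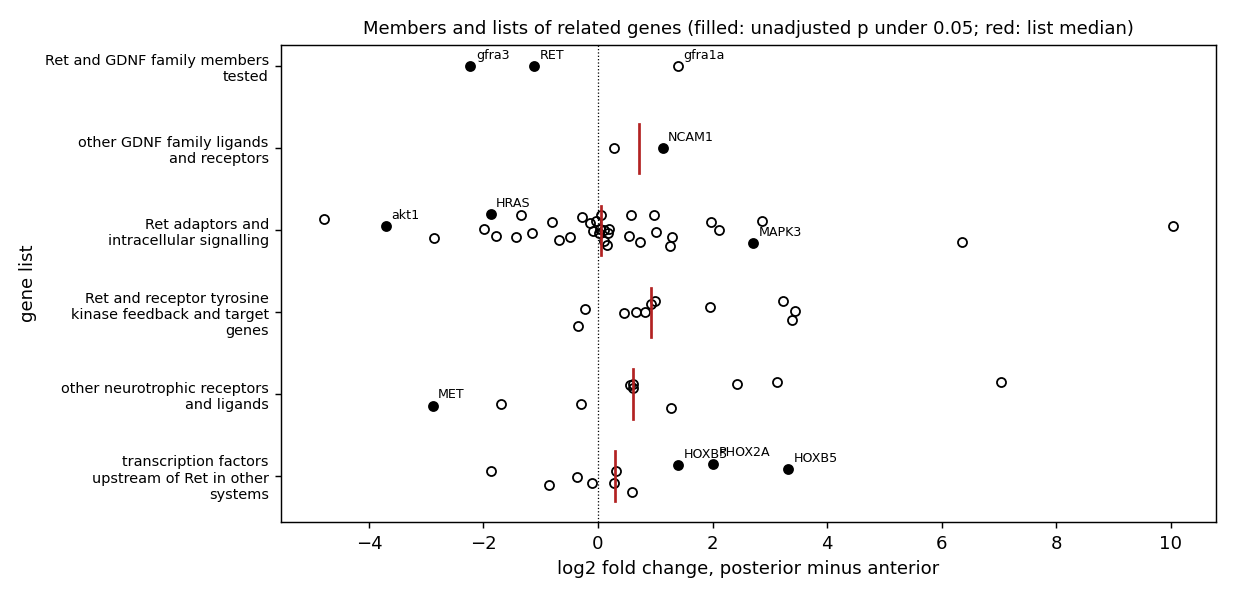
Log2 fold changes, posterior minus anterior, of the 3 tested members and of each tested gene in 5 lists of related genes (points; filled where the unadjusted edgeR p is under 0.05; red lines are list medians; vertical scatter is for legibility). The intracellular signalling genes spread on both sides of 0 with a median of 0.053, and the feedback and target genes lie mostly above 0 with a median of 0.93.

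Genes with the most similar profile over the 5 libraries were sought among 8036 genes with a mean of at least 10 CPM. The measure was the root mean square difference of log2(CPM + 1) after each gene was centred on its own mean. The nearest to RET were NIPBL (0.070), klc4 (0.076) and BAG4 (0.081), which encode a cohesin loader, a kinesin light chain and a chaperone regulator. The nearest to gfra1a were TBP (0.060), nt5c2b (0.13) and SLC40A1 (0.13). The nearest to gfra3 was nefmb (0.43), a neurofilament gene, followed by FBXO46 (0.49) and JAK1 (0.61). Profiles within 1 log2 unit were found for 30.9% of genes with RET and 0.311% with gfra3. Nefmb was at 105 (B) and 354 CPM (G) in anterior and at 71.8 (B), 46.7 (G) and 0 CPM (R) in posterior libraries. It was picked for its likeness to gfra3, so the high anterior G and the 0 in posterior R that they share follow from the search. FBXO46 was at 86.7 and 94.4 CPM and JAK1 at 58.7 and 58.0 CPM in anterior B and G, without the high anterior G.

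Markers of other cells that use Ret were read in the same libraries. Among markers of enteric and other neural crest cells, SOX10, FOXD3, both MITF genes and both EDNRB genes had 0 counts in all 5 libraries, and HAND2 had 60 counts in posterior G alone. The summed level of the 9 identifiers was 34.0 and 167 CPM in the anterior libraries and 42.2 to 127 CPM in the posterior ones, nearly all of it TFAP2A and TFAP2B, and the groups overlapped. Summed markers of cranial sensory neurons were 71.7 (B) and 274 CPM (G) in anterior and 527 (B), 328 (G) and 518 CPM (R) in posterior libraries, with 1 to 5 of 9 identifiers above 3 counts. Of these, both P2RX3 genes and TRPA1 had 0 counts in every library, while DRGX had 0 and 2 counts in anterior and 2315, 969 and 2074 in posterior libraries. The summed list was higher in the same libraries as gfra1a, but DRGX was its only identifier with groups that did not overlap. Most of the rest of the sum came from NEUROD1 and ISL2 (ENSDARG00000003971), whose groups overlapped. NEUROD1 ranged from 0 to 157 CPM among anterior libraries and from 97.1 to 262 CPM among posterior ones. For ISL2 these ranges were 71.7 to 115 CPM and 107 to 166 CPM. The part of this list in the gfra1a difference was not tested.

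Among motor neuron markers, PRPH, a neuronal intermediate filament gene, was higher in the same group as RET and gfra3, while PHOX2A, the other marker with an unadjusted p under 0.05, was higher on average in posterior cells. PRPH anterior levels were 230.0 (B) and 586 CPM (G) and posterior levels 83.6 (B), 127 (G) and 53.6 CPM (R), with an adjusted p of 0.683 by edgeR. The summed level of all 9 identifiers of that list overlapped between groups, at 3186 and 3832 CPM in anterior and 3174 to 4108 CPM in posterior libraries. ISL1 was the largest part of this sum in every library, at 1805 to 2381 CPM, and PHOX2A added 1466 CPM in posterior B. Markers at lower levels weigh little in it. Over the 5 libraries CHAT ranged from 0 to 36.1 CPM, SLC5A7 (ENSDARG00000074860) from 0 to 60.5 CPM and TBX20 from 3.30 to 152 CPM. The sum therefore does not show whether motor neuron content was equal. Summed progenitor and glial markers also overlapped, at 2926 and 4349 CPM against 3201 to 4013 CPM. Most of this sum came from mki67, PCNA and FABP7 (ENSDARG00000007697, 505 to 1139 CPM), while SOX2 ranged from 10.5 to 65.2 CPM. It therefore does not show whether progenitor or glial content was equal. PCNA alone in that list had an unadjusted edgeR p under 0.05 (0.0494, adjusted 0.726), and its groups were separate. It was at 876 (B) and 859 CPM (G) in anterior and 1420 (B), 1450 (G) and 1076 CPM (R) in posterior libraries. Mki67 ranged from 383 to 2055 CPM, and its groups overlapped. Mesoderm, muscle and endothelial markers summed to 511 CPM in anterior B and to 1.88 to 64.1 CPM in the other 4 libraries. Blood markers were at or under 0.053 CPM in every library, and skin markers reached 30.1 CPM in anterior B and 23.3 CPM in posterior G. The part of these in the differences of the members was not tested, and fewer cells that express a gene and less RNA per cell cannot be told apart in libraries of pooled cells.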

How the data were processed

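The authors deposited raw counts of reads for each Ensembl gene, in a separate file for every library. The submitters' processing notes name bcl2fastq 1.8.4, TopHat2 2.1.0, HTSeq 0.6.1 and the build GRCz10. Which annotation was used, and whether strand was, is not given in the sources used here, so overlapping and antisense genes are uncertain. Lines that name no gene held 27.5% to 31.0% of reads and were left out. They include reads aligned to several places (16.5% to 20.3%), so counts of near-identical duplicates are uncertain.

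Libraries were grouped by source name, and the letter of the title named the replicate. Counts were tested with edgeR 4.0.16 in R 4.3.3 (TMM, filterByExpr with a minimum count of 10 and total of 15, estimateDisp, glmQLFit with legacy=FALSE, glmQLFTest), with two-sided p-values adjusted by Benjamini-Hochberg over all genes tested and a threshold of 0.05. The SE is the log2 fold change divided by the square root of F. The code was tested on simulated data. The design did not state which form of glmQLFit to use, and the legacy form was added as an alternative after the data were seen. DESeq2 1.42.0, limma-voom (limma 3.58.1), RLE size factors, other filters, a replicate block and leaving out each library were the other alternatives. The main fit had no term for the letters, whose meaning the labels do not give. Across 11827 genes, the B minus G differences of the groups had a correlation of 0.0020. It comes from 2 pairs of libraries and cannot show whether a letter links libraries. Of 31953 identifiers, 26121 had a symbol. A list symbol matched in any case, or without its final a or b against capitals.

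The members and lists were chosen with earlier results of these data known. Named genes are the members, the 3 tested genes nearest in profile to each tested member with at least 10 CPM, the 3 genes of each list with the smallest p, the tested genes of the first list, and met, isl1 and phox2a. Some genes of the lists and of this rule are not reported here and are left out of all list counts. Counts, levels or fold changes of other genes are given where a list is accounted for. No sequences are shown, and further libraries were not analysed here.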

Additional observations from a re-analysis of the deposited data

How the results depend on the processing

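RET and gfra3 stayed lower and gfra1a higher in posterior cells under all 12 distinct alternatives, with adjusted p-values of 0.552 or more. The log2 fold change ranged from -1.43 to -0.74 for RET, from 0.94 to 1.95 for gfra1a and from -5.21 (limma-voom) to -1.45 for gfra3. The unadjusted p was under 0.05 in 6, 0 and 5 of the 12. Members with such a p numbered 2, but 1 in limma-voom and 0 in DESeq2, the legacy form of glmQLFit, the replicate block over 4 libraries and the same 4 libraries without the block, which is the fit without posterior R. Leaving out single libraries gave 0 to 2 members. With the replicate block the log2 fold change was -0.74 for RET, 1.47 for gfra1a and -1.45 for gfra3, against -0.75, 1.47 and -1.54 for the same libraries without it. The count of genes past the adjusted threshold was 0, 252 in DESeq2 and 0 to 7 when single libraries were left out (7 without anterior G and 1 without anterior B). Unadjusted calls numbered 211 of 10770 genes with the block and 524 without it. Of 321 alternative values for 27 named genes, 2 passed the adjusted threshold, both HOXB5 genes in DESeq2, and 3 changed sign, all on leaving out 1 library. The changes of sign were in ISL1 (ENSDARG00000004023; -0.29 to 0.083 over the libraries left out) and NCAM1 ENSDARG00000007220 (-0.064 to 0.78), and the cause was not tested. An anterior group of 1 library was assumed to vary like the posterior group. The differences of RET, gfra1a and gfra3 did not pass the adjusted threshold in the main fit, DESeq2 or limma-voom. With 2 anterior libraries, these 3 differences were thus not separated from the spread between libraries.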

Other observations

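Genes of other neurotrophic systems of motor neurons were read in the same libraries as a list of 27 identifiers, of which 9 had 0 counts throughout and 10 were tested. MET, the receptor gene of hepatocyte growth factor, was the only one with an unadjusted edgeR p under 0.05. Over all genes tested 4.21% had such a p and 12.3% had separate groups, with anterior higher. Of the 10, 7 had a positive log2 fold change, and the list median was 0.61, against -0.055 over all genes tested. IGF1R (ENSDARG00000027423) had 0 (B) and 5.30 CPM (G) in anterior and 23.9 (B), 10.5 (G) and 39.2 CPM (R) in posterior libraries. Its log2 fold change was 3.13 and its unadjusted edgeR p 0.0700. The other IGF1R gene (ENSDARG00000034434) had 3 and 1 counts in anterior B and G and 2, 686 and 62 in posterior B, G and R. Its groups overlapped, and its unadjusted edgeR p was 0.115. MET had 111 (B) and 322 CPM (G) in anterior cells and 0 (B), 64.4 (G) and 24.5 CPM (R) in posterior cells, so the groups did not overlap. Its log2 fold change was -2.89 ± 0.83 (SE), with an edgeR adjusted p of 0.726. The estimate ranged from -1.92 without anterior G to -4.04 without posterior G, and the unadjusted p was 0.105 without anterior G and 0.188 in the legacy form of the fit. MET and gfra3 were both highest in anterior G, but the posterior library with 0 counts was B for MET and R for gfra3. A 0 in 1 library alone, with more than 3 counts in each of the others, was found for 953 genes in posterior B and 114 in posterior R.

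Ligand genes of this list had 0 or 1 count in at least 1 library of each group. One of the genes for hepatocyte growth factor, hgfa, had 93 counts in anterior B, 1 in anterior G and 0 in posterior libraries, and the other had 0 throughout. NTF3 had 0 counts in every library, and BDNF had 32 counts in anterior G and at most 1 elsewhere. The ciliary neurotrophic factor gene cntf had 130 counts in anterior G, 54 in posterior G and 0 elsewhere, and kitlga had 235 counts in anterior G, 460 and 291 in posterior B and G and 0 in the others. Of the receptor genes, NTRK2 had 62 counts in anterior B, 473 in posterior R and at most 2 elsewhere. NTRK3 (ENSDARG00000077228) had 208 counts and ntrk2b 55 counts in posterior R and 0 elsewhere. The gene cntfr, which encodes a receptor for ciliary neurotrophic factor, was found in all 5 libraries with 1167 to 4265 counts, and its groups overlapped.

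Posterior R held 528 genes with more than 3 counts there and 0 counts in the other 4 libraries, among them the second GFRA1 gene and gfra4b. The corresponding numbers were 363 and 569 for anterior B and G and 233 and 403 for posterior B and G.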
